A study of Mus musculus with 12 samples.

Results

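Solute carriers are membrane proteins that move amino acids, sugars, ions, metals, vitamins and other small molecules across the plasma membrane and the membranes of organelles. Their genes carry symbols made of Slc, a family number, a letter and a member number. Every probe set whose single gene symbol in the platform annotation had exactly that form was taken, which gave 35 probe sets for 31 genes of 26 families, out of 3109 probe sets and 1974 genes. RefSeq's mouse annotation (GRCm38.p6) lists 364 symbols of this form, so these are the family members that the deposited table covers. The rule left out 3 probe sets of the Slco genes Slco2a1 and Slco2b1, and 1 probe set that carries the symbols of both Slc28a2 and Slc28a2b. The genes Slc5a3, Slc27a1, Slc39a6 and Slc43a2 had 2 probe sets each, called A (the higher mean level over the 12 arrays) and B (the lower).

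The levels come from cultured bone marrow stroma, the adherent layer that supports blood-forming cells, of C57BL/6 mice aged 3 to 4 months. Wild-type mice, Crebbp+/- mice and Ep300+/- mice each gave 4 biological replicates, hence 12 Affymetrix arrays. Crebbp+/- and Ep300+/- mice lack a working copy of the gene named, and both genes encode related histone acetyltransferases that act as transcriptional coactivators. All cultures, wild type included, had grown for 2 weeks in M5300 medium and were then irradiated with 1500 cGy, so no unirradiated stroma is compared here. How the alleles were made is not given in the sources used here. Values are log2 levels made with GCRMA, which suits comparisons of 1 probe set between arrays, not of one gene's level with another's.

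A transporter family is defined by sequence, and its members usually share a class of substrate and a mode of transport. Some use the sodium gradient to pull a substrate into the cell, some exchange one substrate for another, and some let it flow down its own gradient. In marrow stroma such proteins feed the cells' own metabolism and set ion balance, iron export and the release of metabolites into the niche.

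The array medians lay between 7.98 and 8.43. Crebbp itself stood between 8.45 and 8.59 in wild-type, between 7.67 and 7.88 in Crebbp+/- and between 8.48 and 8.73 in Ep300+/- stroma, while Ep300 has no probe set analysed here. The Y-linked Eif2s3y stood at 2.73 and 2.69 on Crebbp+/- 1 and Crebbp+/- 3, and between 8.41 and 10.84 on the other arrays. Of 11 stroma markers, 8 were measured, and their summed linear level ranged from 22699 to 40785 in wild-type, from 24738 to 49308 in Crebbp+/- and from 16157 to 38241 in Ep300+/- stroma. Of the 8 lymphoid, 6 erythroid and 8 granulocyte markers, 0 had a probe set with a single gene symbol. The 176 probe sets with several symbols were not searched for markers, so these cell types may still have transcripts in the table. Of 14 endothelial markers, 12 were measured, and their summed linear level was 3322 to 5229 in wild-type and 2435 to 3695 in Ep300+/- stroma. In Crebbp+/- stroma it was 13177 to 16362 on arrays 1 to 3 and 5986 on array 4. The 4 measured smooth muscle and pericyte markers summed to 1634 to 4464 in wild-type, 1230 to 3129 in Ep300+/- and 4394 to 13205 in Crebbp+/- stroma, again lowest there on array 4. Of 9 osteoblast markers 3 were measured (Ibsp, Alpl and Pth1r), and they summed to 3808 to 7727 in wild-type, 1276 to 2492 in Crebbp+/- and 2801 to 6651 in Ep300+/- stroma. Their log2 differences between Crebbp+/- and wild type were -1.75, -1.03 and -0.66, and Ibsp passed (limma adjusted p = 0.0293). The part of any of these cell types in the lower Slc levels was not tested. In RNA from a whole culture, a change in the number of cells of a type and a change in RNA per cell cannot be told apart.

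In the whole table a probe set reaches 6.64, the log2 of 100, on 3 arrays or more. For 3 of the 35 Slc probe sets, those of Slc22a23, Slc26a7 and Slc29a3, the Crebbp+/- arrays supplied 3 such arrays, and the other genotypes supplied 0, 2 and 1. They would not be in the table without Crebbp+/-, the genotype in which they were highest, and their Crebbp+/- differences support no statement about the transporters as a group. Counts of calls and of groups without overlap are therefore also given for the other 32. Beside them stand shares of the 2729 probe sets in the table that do not depend on 1 genotype in this way.

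Against wild type, Crebbp+/- stroma had higher levels of Slc12a2, which carries sodium, potassium and chloride into cells together, and of Slc1a6, a glutamate and aspartate transporter. They were the 2 of 35 Slc probe sets that passed (limma adjusted p under 0.05, adjusted over all 3109), where 6.18% of all probe sets passed. Over all probe sets 5.02% passed as higher and 1.16% as lower in Crebbp+/-. Both Slc calls are among the other 32, beside 4.1% higher and 1.14% lower of the 2729. The labels do not state a pairing by replicate number. With that number as a block, 26.1% of all probe sets passed, 17.5% higher and 8.62% lower. Among them were 15 Slc probe sets, 8 higher and 7 lower. Among the other 32 these were 7 higher and 7 lower, beside 15.9% higher and 8.32% lower of the 2729. The Crebbp+/- and wild-type arrays did not overlap for 9 Slc probe sets, 2 higher and 7 lower in Crebbp+/-. Of all probe sets 18.8% did not overlap, 10.4% higher and 8.46% lower. All 9 are among the other 32, beside 9.64% higher and 8.28% lower of the 2729. At an unadjusted p under 0.05 there were 13 Slc probe sets, against 26.7% of all.

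Between Ep300+/- and wild-type stroma 0 Slc probe sets passed in limma, as did 0% of all probe sets. At an unadjusted p under 0.05 there were 3 Slc probe sets, those of Slc16a9, Slc22a23 and Slc35c2, against 4.05% of all. The same 3 genes were those whose groups did not overlap, all lower in Ep300+/-, where 4.15% of all probe sets did not overlap, 1.99% higher and 2.16% lower. Among the other 32 there were 2 without overlap, both lower, beside 1.83% higher and 2.09% lower of the 2729.

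Between the heterozygotes, Slc12a2, Slc1a6, Slc22a23 and Slc16a9 were higher in Crebbp+/- than in Ep300+/- stroma. These 4 were 4 of 35, where 6.4% of all probe sets passed, 4.89% higher and 1.51% lower. Of them 3 are among the other 32, beside 3.81% higher and 1.5% lower of the 2729. With the block 17 Slc probe sets passed, 12 higher and 5 lower in Crebbp+/-, against 24.4% of all probe sets, 19.1% higher and 5.31% lower. Among the other 32 these were 9 higher and 5 lower, beside 17.3% higher and 4.95% lower of the 2729. The groups did not overlap for 13 Slc probe sets, 7 higher and 6 lower in Crebbp+/-, where 13.5% of all probe sets did not, 9.13% higher and 4.34% lower. Among the other 32 there were 6 higher and 6 lower, beside 8.28% higher and 4.32% lower of the 2729. At an unadjusted p under 0.05 there were 19 Slc probe sets, against 25.2% of all. These include Slc22a23, Slc26a7 and Slc29a3, which depend on the Crebbp+/- arrays for their place in the table. No share of the 2729 is given for this count, so it is not read as a result about the transporters. The 3 comparisons share arrays in pairs, so their counts are not independent of each other.

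**Figure D1:**
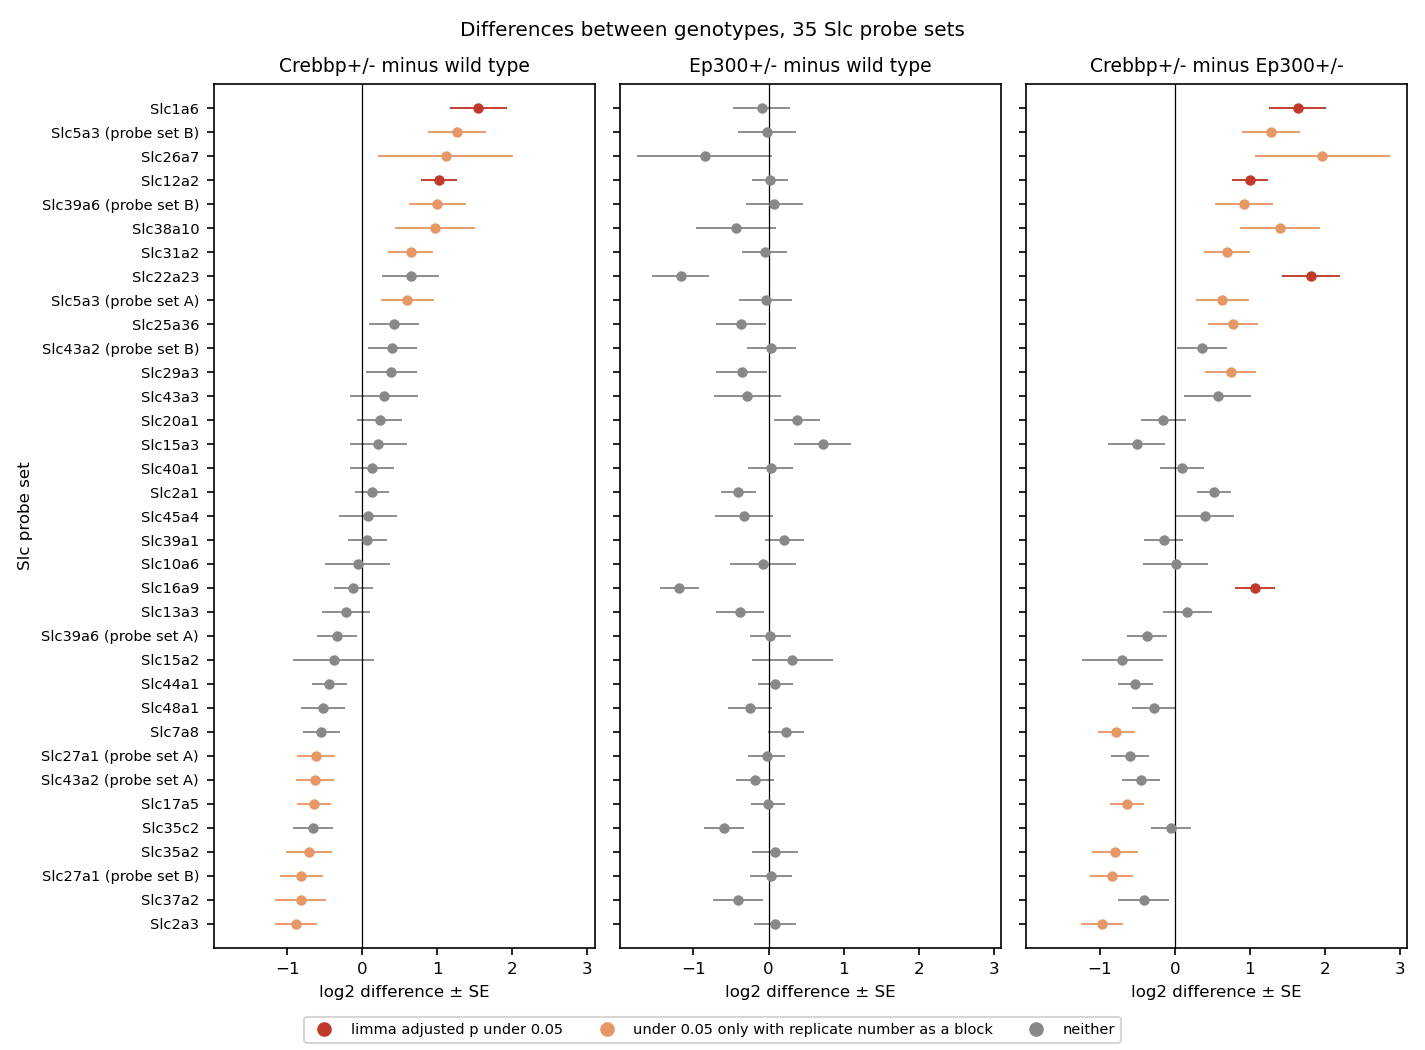
Difference in mean log2 level (x axis, with limma's SE as whisker) of each of the 35 Slc probe sets (y axis) in the 3 comparisons of genotypes, with 4 arrays per genotype. Red marks an adjusted p under 0.05, orange marks one that passed only with replicate number as a block, and grey marks the rest. Slc1a6 and Slc12a2 are red against wild type and against Ep300+/-, and the Ep300+/- panel has no coloured point.

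The median difference between Crebbp+/- and wild type was 0.24 over all probe sets and 0.076 over the Slc probe sets, of which 19 were positive and 16 negative. Quantile normalization moved these medians to 0.022 and -0.17, with 13 Slc probe sets positive and 22 negative. Calls over all probe sets went from 156 higher and 36 lower to 120 higher and 72 lower. Small differences therefore have no fixed sign, and differences in the comparison of Crebbp+/- with wild type are best read against 0.24. After quantile normalization 3 Slc probe sets passed against wild type, Slc12a2 and Slc1a6 higher and the glucose transporter Slc2a3 lower. For Ep300+/- against wild type the medians were 0.049 and -0.038, and between the heterozygotes 0.025 and 0.098.

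The 250 bases before the start site are shown for the 3 called genes whose sequence can be given, to let the differences be set beside the promoter (RefSeq, GRCm38.p6, each 5′ to 3′ on the gene's own strand). Capitals mark GGGCGG or its reverse complement CCGCCC, the GC box that Sp-family factors bind, where neighbouring matches can overlap and run together. The Slc1a6 window is chr10:78780246-78780495 on the plus strand, the Slc16a9 window chr10:70245026-70245275 on the plus strand, and the Slc22a23 window chr13:34345219-34345468 on the minus strand.
Slc1a6: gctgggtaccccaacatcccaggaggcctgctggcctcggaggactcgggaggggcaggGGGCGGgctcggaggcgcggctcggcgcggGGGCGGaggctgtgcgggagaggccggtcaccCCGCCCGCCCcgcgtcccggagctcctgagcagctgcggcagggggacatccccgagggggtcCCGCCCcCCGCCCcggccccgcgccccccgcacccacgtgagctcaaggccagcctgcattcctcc
Slc16a9: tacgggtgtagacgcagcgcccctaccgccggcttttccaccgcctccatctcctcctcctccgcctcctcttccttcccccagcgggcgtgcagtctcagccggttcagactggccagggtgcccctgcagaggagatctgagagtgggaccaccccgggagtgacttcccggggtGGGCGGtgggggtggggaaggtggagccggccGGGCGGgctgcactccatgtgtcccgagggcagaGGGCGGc
Slc22a23: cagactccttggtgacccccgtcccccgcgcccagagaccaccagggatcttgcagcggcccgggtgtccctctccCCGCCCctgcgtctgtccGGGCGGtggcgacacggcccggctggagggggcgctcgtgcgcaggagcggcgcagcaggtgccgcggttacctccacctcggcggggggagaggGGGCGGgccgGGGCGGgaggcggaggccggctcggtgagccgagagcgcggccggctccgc
The Slc1a6 window holds 6 matches and 26 CpG dinucleotides, the Slc16a9 window 3 matches and 18 CpG, and the Slc22a23 window 4 matches and 32 CpG. A window was found for 22 of the 31 Slc genes, 28 windows in all. GGGCGG on either strand was in 23 of these 28 windows, of 18 genes, and in 32.7% of the 32851 windows of all genes; this motif was chosen after the sequences had been seen. The median CpG count was 14.5 in the Slc windows and 6 in all windows. The windows of all genes were not matched for CpG or limited to genes in the deposited table. The share with GGGCGG in the Slc windows and that in all windows are thus not like for like.

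The full cyclic AMP response element TGACGTCA, the site bound by CREB, to which the Crebbp protein binds in turn, was in 1 Slc window and in 1.55% of all windows. That window belongs to Slc25a36, a mitochondrial carrier of pyrimidine nucleotides. The element ends 153 bases before the start site, and the stretch around it, chr9:97111165-97111232 on the minus strand, is given with the element in capitals.
Slc25a36: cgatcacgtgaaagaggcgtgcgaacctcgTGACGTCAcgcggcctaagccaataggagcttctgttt
Slc25a36 stood at 7.95 ± 0.41 in wild-type, 8.37 ± 0.47 in Crebbp+/- and 7.59 ± 0.49 in Ep300+/- stroma (log2 level, mean ± SD, n = 4). The difference between Crebbp+/- and wild type was 0.42 (limma adjusted p = 0.440). Between Crebbp+/- and Ep300+/- stroma it was 0.78 (limma adjusted p = 0.165, and 0.0272 with the block). The amino acid response element TTGCATCA was in 0 of the 28 windows and in 0.791% of all. The interferon-type motif GAAANNGAA was in 1 Slc window, that of the amino acid exchanger Slc7a8, and in 7.13% of all. Each motif was read on both strands, and a match is a description of the letters only.

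Among the 3 genes of the inorganic ion families, Slc12a2 was higher in Crebbp+/- stroma. Its log2 levels on replicates 1 to 4 were 7.02, 7.21, 6.43 and 6.81 in wild type, 7.69, 8.13, 7.81 and 7.95 in Crebbp+/- and 6.88, 7.14, 6.82 and 6.73 in Ep300+/-. All 4 Crebbp+/- arrays lay above all 8 others, and the wild-type and Ep300+/- arrays overlapped. Crebbp+/- exceeded wild type 2.04-fold (log2 difference 1.03, SE 0.24, limma adjusted p = 0.0283, and 0.00816 with the block). It exceeded Ep300+/- by a log2 difference of 1.003 (SE 0.24, limma adjusted p = 0.0298, and 0.00720 with the block). A two-sided exact permutation test, with arrays unpaired, gave p = 0.0286 in each case, the lowest value these 70 regroupings can give. The difference between Ep300+/- and wild type was 0.024 (limma adjusted p = 0.998). Against wild type the call did not hold after median centring (limma adjusted p = 0.0571), and without wild-type 2, 3 or 4 (0.0555, 0.0747 and 0.0946) or Crebbp+/- 1, 2 or 3 (0.0846, 0.0907 and 0.0588). Against Ep300+/- it did not hold after median centring (limma adjusted p = 0.0501), and without Crebbp+/- 1, 2 or 3 (0.0856, 0.0997 and 0.0521) or Ep300+/- 1 or 4 (0.0808 and 0.0800). Crebbp+/- 4, where the endothelial sum was 5986, had the second-highest Slc12a2 level of all arrays. The part of endothelial RNA in this result was not tested.

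The anion exchanger Slc26a7 had the widest spread of the 35. On replicates 1 to 4 it stood at 7.50, 6.45, 6.64 and 4.52 in wild type, at 7.68, 7.77, 8.75 and 5.37 in Crebbp+/- and at 5.72, 5.67, 7.20 and 3.10 in Ep300+/-. Replicate 4 was the lowest array of each genotype. The groups overlapped in each comparison, while within every replicate number Crebbp+/- was the highest genotype and Ep300+/- was below wild type for numbers 1, 2 and 4. The log2 difference between Crebbp+/- and wild type was 1.11 (SE 0.90, limma adjusted p = 0.448, and 0.0426 with the block). Between the heterozygotes it was 1.97 (limma adjusted p = 0.196, and 0.00681 with the block). Slc26a7 is one of the 3 probe sets that depend on the Crebbp+/- arrays for their place in the table. The phosphate transporter Slc20a1 stood at 10.85 ± 0.27, 11.08 ± 0.50 and 11.23 ± 0.36 in wild-type, Crebbp+/- and Ep300+/- stroma and passed in none of the 3 comparisons.

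**Figure D2:**
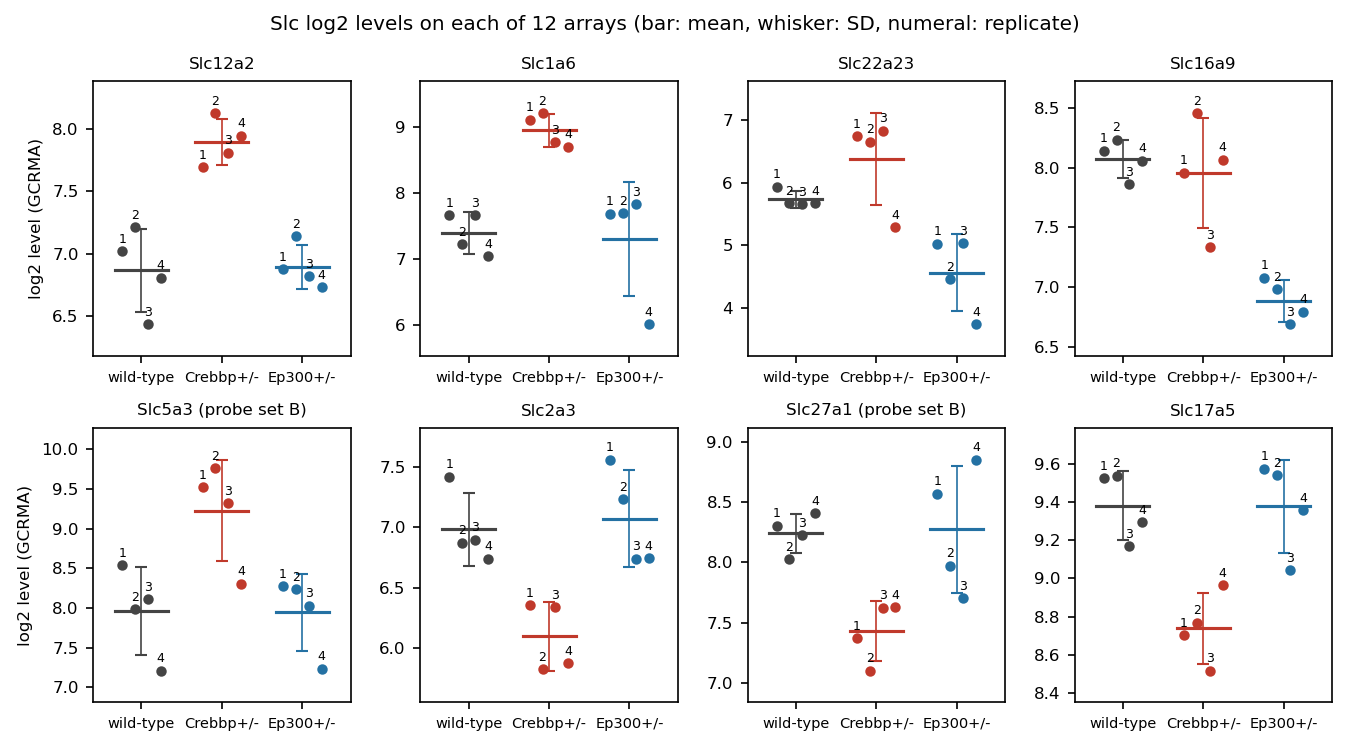
Log2 level (GCRMA, y axis) of 8 Slc probe sets on each of the 12 arrays, by genotype (x axis), with the group mean as a bar, the SD as a whisker (n = 4) and the replicate number beside each point. The y axes differ between panels and do not start at 0. Slc12a2 and Slc1a6 are high on all 4 Crebbp+/- arrays, whereas Slc22a23 and Slc5a3 are low on Crebbp+/- 4.

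In Crebbp+/- against wild-type stroma 6.18% of all probe sets passed. Of the 8 probe sets of amino acid and peptide families, that of Slc1a6 alone passed, with Crebbp+/- stroma above wild type. Its wild-type levels were 7.66, 7.22, 7.66 and 7.03, its Crebbp+/- levels 9.10, 9.20, 8.76 and 8.70, and its Ep300+/- levels 7.68, 7.69, 7.82 and 6.01. The lowest Crebbp+/- array exceeded the highest of the other 8, and Ep300+/- 4 lay far below its group. The level was 2.92-fold that of wild type (log2 difference 1.55, SE 0.38, limma adjusted p = 0.0331, and 0.00920 with the block). Against Ep300+/- it was 3.12-fold (log2 difference 1.64, SE 0.38, limma adjusted p = 0.0265, and 0.00681 with the block). Both had an exact two-sided permutation p = 0.0286. Against wild type it did not pass when wild-type 2, 3 or 4 was left out (limma adjusted p = 0.0905, 0.0650 and 0.110), or Crebbp+/- 1, 2 or 3 (0.112, 0.100 and 0.0612). That against Ep300+/- was lost without Crebbp+/- 1 or 2 (limma adjusted p = 0.0918 and 0.0908) or Ep300+/- 1 (0.0617), and without Ep300+/- 4 the difference was 1.21 (0.0390).

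The other members of these families did not pass without the block. Slc38a10, of the family that holds the sodium-coupled neutral amino acid transporters, stood at 7.28, 7.35, 5.65 and 6.66 in wild type, 7.63, 8.96, 6.72 and 7.51 in Crebbp+/- and 7.06, 6.89, 5.63 and 5.62 in Ep300+/-. Within each of the 4 replicate numbers it was highest in Crebbp+/- and lowest in Ep300+/-. The log2 difference between Crebbp+/- and wild type was 0.97 (limma adjusted p = 0.256, and 0.0322 with the block), and between the heterozygotes 1.40 (0.123, and 0.00876 with the block). Slc7a8, which exchanges large neutral amino acids, ran the other way. It stood at 9.84, 9.72, 9.22 and 9.74 in wild type, 8.97, 8.84, 9.11 and 9.42 in Crebbp+/- and 10.09, 9.70, 9.63 and 10.03 in Ep300+/-. All Crebbp+/- arrays lay under all Ep300+/- arrays, with a log2 difference of -0.78 (limma adjusted p = 0.0737, and 0.0202 with the block), and with that of -0.55 the wild-type comparison passed neither test (limma adjusted p = 0.173, and 0.0645 with the block).

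The 2 probe sets of Slc43a2, a facilitative transporter of branched-chain and other large neutral amino acids, disagreed. For probe set A the levels were 13.37, 13.43, 13.62 and 13.77 in wild type and 12.88, 12.66, 12.93 and 13.20 in Crebbp+/-, which did not overlap (log2 difference -0.63, limma adjusted p = 0.137, and 0.0394 with the block). For probe set B they were 7.76, 7.70, 6.61 and 7.03 against 7.79, 8.06, 7.22 and 7.63, with a difference of 0.40 (limma adjusted p = 0.454, and 0.119 with the block). No direction is given for the gene.

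The peptide transporters Slc15a2 and Slc15a3 differed in spread. Slc15a2 stood at 7.22 and 7.35 on Crebbp+/- 1 and 3 and at 5.09 and 4.99 on Crebbp+/- 2 and 4, against 5.85 to 7.07 in wild type and 6.52 to 7.50 in Ep300+/-. The pair of Crebbp+/- arrays with high Slc15a2 is the pair with Eif2s3y at 2.73 and 2.69, and whether these are linked was not tested. Slc15a3, a lysosomal transporter of peptides and histidine, had Ep300+/- levels of 9.31, 9.38, 10.35 and 9.995 against 8.90, 9.08, 8.78 and 9.38 in wild type, a log2 difference of 0.72 (limma adjusted p = 0.965). Slc43a3, placed here only by the family number that it shares with Slc43a2, stood at 9.07, 8.96 and 9.09 on Crebbp+/- 1 to 3. It stood at 7.71 on Crebbp+/- 4, where the endothelial and pericyte sums were the lowest of the 4 too. The part of those cell types in this was not tested.

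Of the 8 genes of the families for organic acids, nucleosides, vitamins, choline and other organic molecules, 2 passed between the heterozygotes. In that comparison 6.4% of all probe sets passed. Of the 2, Slc22a23 is in the table only through its Crebbp+/- arrays. Slc16a9, a monocarboxylate transporter family member known to carry carnitine, stood at 8.14, 8.23, 7.86 and 8.06 in wild type, 7.96, 8.46, 7.34 and 8.07 in Crebbp+/- and 7.08, 6.98, 6.69 and 6.79 in Ep300+/-. Each Ep300+/- array lay below each of the 8 others, and the wild-type and Crebbp+/- arrays overlapped. Crebbp+/- exceeded Ep300+/- 2.10-fold (log2 difference 1.07, SE 0.26, limma adjusted p = 0.0310, and 0.00718 with the block, exact permutation p = 0.0286). Ep300+/- held 43.9% of the wild-type level, and this comparison did not pass (log2 difference -1.19, SE 0.26, limma adjusted p = 0.309, exact permutation p = 0.0286). It was nonetheless the lowest adjusted p of the 35 Slc probe sets for Ep300+/- against wild type. The adjusted p in this comparison ranged from 0.213 to 0.951 over the fits without 1 array. The call between the heterozygotes was lost after median centring (limma adjusted p = 0.0582), and without wild-type 4 (0.0514), Crebbp+/- 1 or 2 (0.101 and 0.105) or Ep300+/- 1, 2 or 4 (0.0729, 0.0630 and 0.0816).

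Slc22a23, an organic ion transporter family member whose substrate is not established, stood at 5.94, 5.67, 5.66 and 5.68 in wild type, 6.74, 6.66, 6.83 and 5.29 in Crebbp+/- and 5.03, 4.46, 5.04 and 3.74 in Ep300+/-. Each Ep300+/- array lay below each of the 8 others, and Crebbp+/- 4 lay below wild type. Crebbp+/- exceeded Ep300+/- 3.52-fold (log2 difference 1.82, SE 0.38, limma adjusted p = 0.0207, and 0.00443 with the block, exact permutation p = 0.0286). The arrays on which it reached 6.64 were Crebbp+/- 1 to 3 alone, so it is in the table through the genotype in which it is high. Ep300+/- differed from wild type by -1.17 (limma adjusted p = 0.841, exact permutation p = 0.0286). The call was lost without Crebbp+/- 1 or 2 (limma adjusted p = 0.0841 and 0.0705) and without Ep300+/- 1 or 4 (0.0547 and 0.0556). The arrays Crebbp+/- 1 to 3 are also those with endothelial sums of 13177 to 16362, and the part of endothelial RNA in this result was not tested.

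Slc17a5, the lysosomal exporter of sialic acid, stood at 9.53, 9.54, 9.17 and 9.29 in wild type, 8.70, 8.77, 8.52 and 8.96 in Crebbp+/- and 9.57, 9.54, 9.04 and 9.36 in Ep300+/-. All 4 Crebbp+/- arrays lay below all 8 others. The mean was 64.0% of wild type (log2 difference -0.64, SE 0.23, limma adjusted p = 0.103, and 0.0268 with the block), and the difference from Ep300+/- was also -0.64 (0.104, and 0.0262 with the block). Slc29a3, a nucleoside transporter of endosomes and lysosomes, differed between the heterozygotes by 0.74 (limma adjusted p = 0.195, and 0.0291 with the block), and it too depends on the Crebbp+/- arrays for its place in the table. The choline transporter Slc44a1 stood at 8.18, 8.26, 7.94 and 8.09 in Crebbp+/- and between 8.41 and 8.88 in Ep300+/-, without overlap (log2 difference -0.53, limma adjusted p = 0.180, and 0.0649 with the block). The heme transporter Slc48a1, the dicarboxylate transporter Slc13a3 and the sulfated steroid transporter Slc10a6 passed in none of the comparisons, with log2 differences between Crebbp+/- and wild type of -0.52, -0.22 and -0.062.

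In the sugar and inositol families, 0 of 5 probe sets passed, and with the block Slc2a3 was lower and both probe sets of Slc5a3 were higher in Crebbp+/- stroma. With the block 8.62% of all probe sets passed as lower and 17.5% as higher against wild type, and 5.31% and 19.1% against Ep300+/-. Slc2a3, a high-affinity glucose transporter, stood at 7.42, 6.87, 6.90 and 6.74 in wild type, 6.35, 5.83, 6.34 and 5.88 in Crebbp+/- and 7.56, 7.23, 6.74 and 6.74 in Ep300+/-. All Crebbp+/- arrays were below all others. The mean was 54.2% of wild type (log2 difference -0.88, SE 0.27, limma adjusted p = 0.0746, and 0.0155 with the block) and the log2 difference from Ep300+/- was -0.97 (0.0527, and 0.0105 with the block). Against wild type it passed after quantile normalization (-0.997, limma adjusted p = 0.0395), after median centring (-1.08, 0.0338) and with array weights (-0.68, 0.0247). Against Ep300+/- it passed after quantile normalization (-1.06, limma adjusted p = 0.0308), after median centring (-1.11, 0.0276), with array weights (-1.04, 0.00120), with 1 probe set per gene (0.0397) and without Ep300+/- 3 (-1.08, 0.0384). The other glucose transporter measured, Slc2a1, stood at 8.04, 8.29, 7.65 and 8.22 in wild type, 8.005, 8.35, 8.14 and 8.22 in Crebbp+/- and 7.79, 7.68, 7.41 and 7.72 in Ep300+/-. Its Ep300+/- arrays all lay below its Crebbp+/- arrays (log2 difference between the heterozygotes 0.53, limma adjusted p = 0.173, and 0.0592 with the block). Slc2a1 and Slc2a3 thus stood in opposite order between the heterozygotes.

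Slc5a3, which takes up myo-inositol with sodium, was read by a pair of probe sets whose differences had the same sign. For probe set B the levels were 8.54, 7.99, 8.11 and 7.21 in wild type, 9.52, 9.76, 9.32 and 8.30 in Crebbp+/- and 8.28, 8.24, 8.03 and 7.24 in Ep300+/-. Replicate 4 was the lowest array in each genotype, and within each replicate number Crebbp+/- was highest. The log2 difference from wild type was 1.27 (SE 0.39, limma adjusted p = 0.0713, and 0.00647 with the block), and it was 1.57 without Crebbp+/- 4 (0.0176). From Ep300+/- it was 1.28 (limma adjusted p = 0.0650, and 0.00443 with the block). For probe set A the differences were 0.60 from wild type (limma adjusted p = 0.287, and 0.0365 with the block) and 0.64 from Ep300+/- (0.288, and 0.0287 with the block). Slc45a4, placed here by its family number, passed in none of the comparisons and stood at 6.58 ± 0.35, 6.66 ± 0.64 and 6.26 ± 0.67 in wild-type, Crebbp+/- and Ep300+/- stroma.

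Both probe sets of Slc27a1, which takes up long-chain fatty acids and is the only fatty acid transporter gene among the 31, were lower in Crebbp+/- than in wild-type stroma with the block and not without it. For probe set B the levels were 8.31, 8.03, 8.23 and 8.41 in wild type, 7.37, 7.10, 7.62 and 7.63 in Crebbp+/- and 8.57, 7.97, 7.70 and 8.85 in Ep300+/-. No Crebbp+/- array reached the lowest wild-type or Ep300+/- array. The mean was 57.0% of wild type (log2 difference -0.81, SE 0.28, limma adjusted p = 0.101, and 0.0304 with the block). For probe set A it was 65.1% (log2 difference -0.62, SE 0.25, limma adjusted p = 0.144, and 0.0429 with the block). Of 12 adipocyte markers 8 were measured, with a summed linear level of 27385 to 58193 in wild-type, 21604 to 38094 in Crebbp+/- and 24722 to 43114 in Ep300+/- stroma, and their part in the Slc27a1 values was not tested.

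The 3 genes of the Golgi and endoplasmic reticulum families all had lower means in Crebbp+/- than in wild type, and 0 passed without the block. Of all probe sets 62.4% had a higher mean in Crebbp+/- than in wild type, and with the block 8.62% passed as lower. Slc37a2, a sugar phosphate exchanger of the endoplasmic reticulum, stood at 9.61, 9.74, 9.71 and 10.08 in wild type, 8.88, 8.57, 8.88 and 9.53 in Crebbp+/- and 9.38, 9.10, 8.72 and 10.30 in Ep300+/-. The Crebbp+/- and wild-type arrays did not overlap (log2 difference -0.82, SE 0.34, limma adjusted p = 0.146, and 0.0297 with the block). Slc35a2, which brings UDP-galactose into the Golgi, stood at 7.29, 7.63, 8.01 and 8.23 in wild type, 6.88, 6.81, 6.99 and 7.67 in Crebbp+/- and 7.92, 7.77, 7.42 and 8.39 in Ep300+/-. It was lowest in Crebbp+/- within each replicate number (log2 difference from wild type -0.71, limma adjusted p = 0.165, and 0.0394 with the block). Slc35c2, a relative of the Golgi GDP-fucose transporter, was the member with the tightest wild-type values, at 7.35, 7.39, 7.43 and 7.46. All 8 heterozygous arrays lay below them, at 6.74, 6.52, 6.73 and 7.02 in Crebbp+/- and 7.20, 6.84, 6.09 and 7.10 in Ep300+/-. The log2 differences were -0.65 for Crebbp+/- (limma adjusted p = 0.145, and 0.0620 with the block) and -0.60 for Ep300+/- (0.965), each with an exact permutation p = 0.0286. These comparisons share the 4 wild-type arrays.

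In the metal families 0 of 5 probe sets passed in any comparison. With the block 2 passed as higher in Crebbp+/-, against wild type and against Ep300+/-, where 17.5% and 19.1% of all probe sets did. Slc31a2, a copper transporter of intracellular membranes, stood at 8.67, 9.07, 8.13 and 8.23 in wild type, 9.14, 9.73, 9.03 and 8.81 in Crebbp+/- and 8.44, 8.66, 8.80 and 8.01 in Ep300+/-. The Crebbp+/- arrays all lay above the Ep300+/- arrays and overlapped wild type, by log2 differences of 0.70 (limma adjusted p = 0.172, and 0.0393 with the block) and 0.65 (0.189, and 0.0496 with the block). The zinc importer Slc39a6 had probe sets of opposite sign. For probe set B Crebbp+/- exceeded wild type by a log2 difference of 0.999 (limma adjusted p = 0.123, and 0.0255 with the block), and for probe set A the difference was -0.34 (0.435, and 0.193 with the block), so no direction is given for the gene. The zinc importer Slc39a1 stood at 8.86 ± 0.27, 8.93 ± 0.29 and 9.07 ± 0.33. Slc40a1, the iron exporter ferroportin, stood at 12.24, 12.31, 11.46 and 11.69 in wild type, 12.22, 12.56, 11.86 and 11.57 in Crebbp+/- and 12.12, 12.24, 11.77 and 11.69 in Ep300+/-. Replicates 1 and 2 exceeded replicates 3 and 4 in each genotype, while the log2 differences between genotypes were at most 0.13.

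**Figure D3:**
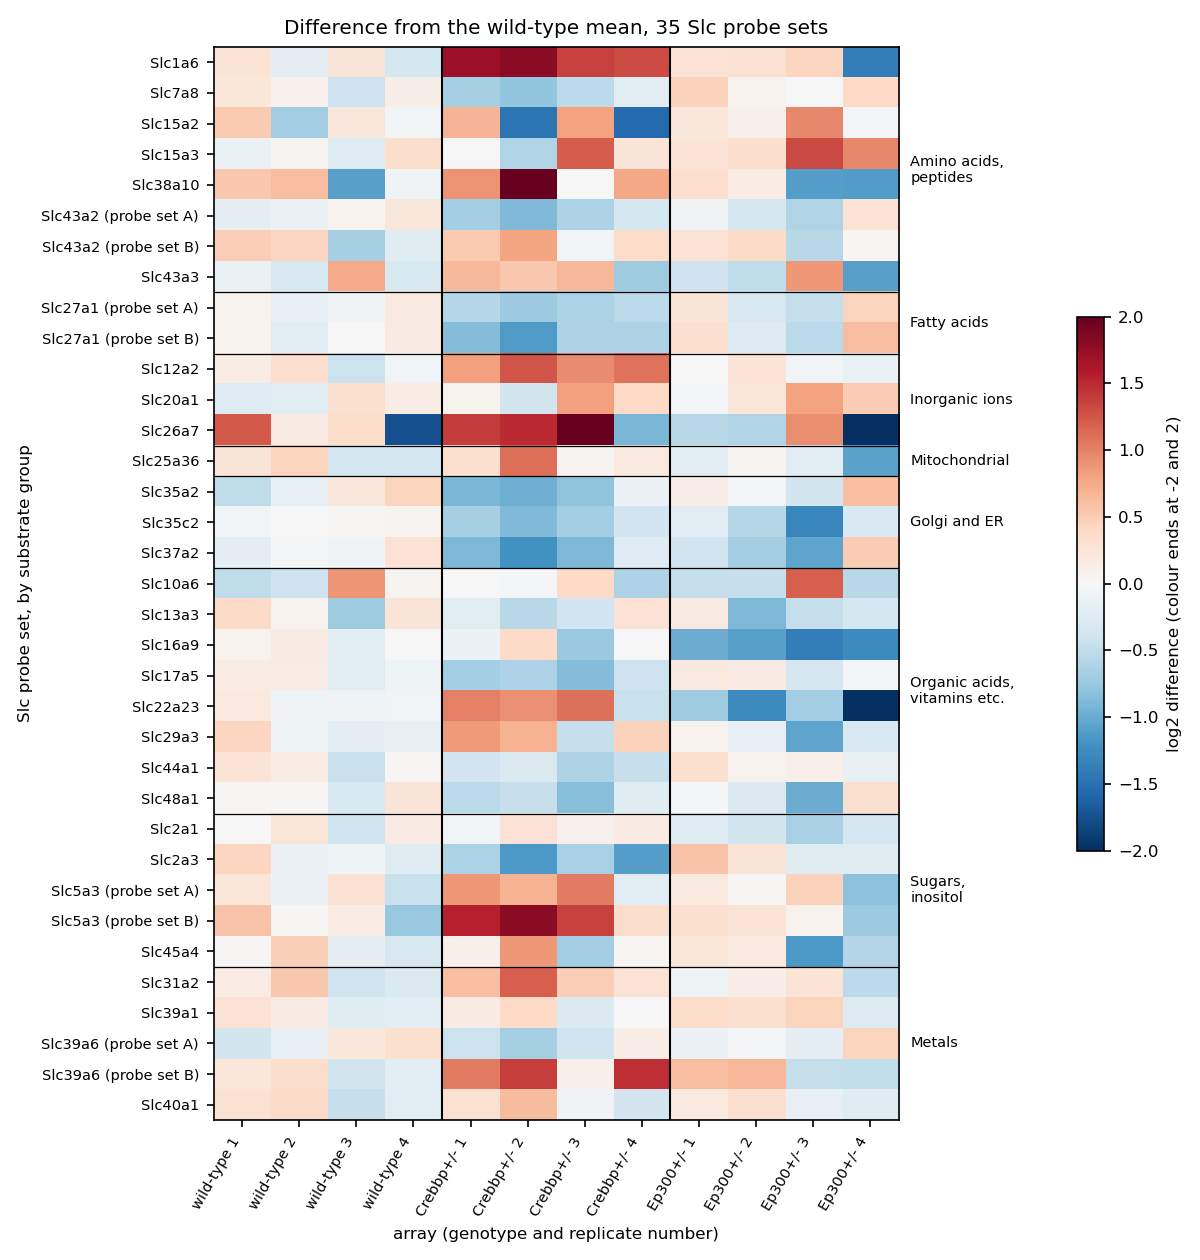
Log2 level minus the wild-type mean of the same probe set, by colour (red above, blue below, ends at -2 and 2), for the 35 Slc probe sets (y axis, by substrate group) on the 12 arrays (x axis). Slc1a6 and Slc12a2 are red on all 4 Crebbp+/- arrays, Slc16a9 and Slc22a23 are blue on all 4 Ep300+/- arrays, and Slc26a7 and Slc22a23 change colour at Crebbp+/- 4.

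The arrays were also set one by one against the wild-type range. Crebbp+/- 2 had 17 Slc probe sets above the range of the 4 wild-type arrays, 14 below and 4 within, while Crebbp+/- 4 had 6 above, 12 below and 17 within. Over all 3109 probe sets, 39.5% were above, 29.5% below and 30.97% within the range on Crebbp+/- 2. On Crebbp+/- 4 these shares were 20.6%, 21.3% and 58.1%. The medians of these arrays were 8.43 and 8.15. Crebbp+/- 1 had 12 above, 11 below and 12 within, and Crebbp+/- 3 had 9, 16 and 10, where 38.8% and 41.2% of all probe sets were within. Among the Ep300+/- arrays, numbers 1 and 2 had 21 within the range each, and numbers 3 and 4 had 12 and 10. Of all probe sets 71.4%, 66.7%, 46.1% and 50.1% were within on Ep300+/- 1 to 4.

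Part of the spread followed the replicate number. The sum of squares of the 12 values was split into a share for genotype, a share for replicate number and a rest. Genotype has 2 degrees of freedom and replicate number 3, so their shares are not like for like. Over the Slc probe sets the median shares were 40.5%, 38.2% and 13.9%, and over all probe sets 26.7%, 43.4% and 24.3%. The share of the replicate number exceeded that of genotype in 18 of the 35 Slc probe sets and in 63.0% of all probe sets. Genotype held 83.8% for Slc12a2, 80.8% for Slc16a9, 74.4% for Slc17a5 and 71.3% for Slc1a6. The replicate number held 87.7% for Slc40a1 and 77.9% for Slc10a6, whose genotype shares were 2.6% and 0.34%. Slc10a6 stood at 9.01, 8.53 and 9.32 on the replicates numbered 3 against 7.50 to 8.18 on the other 9 arrays. The labels do not say what arrays of the same number share.

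**Figure D4:**
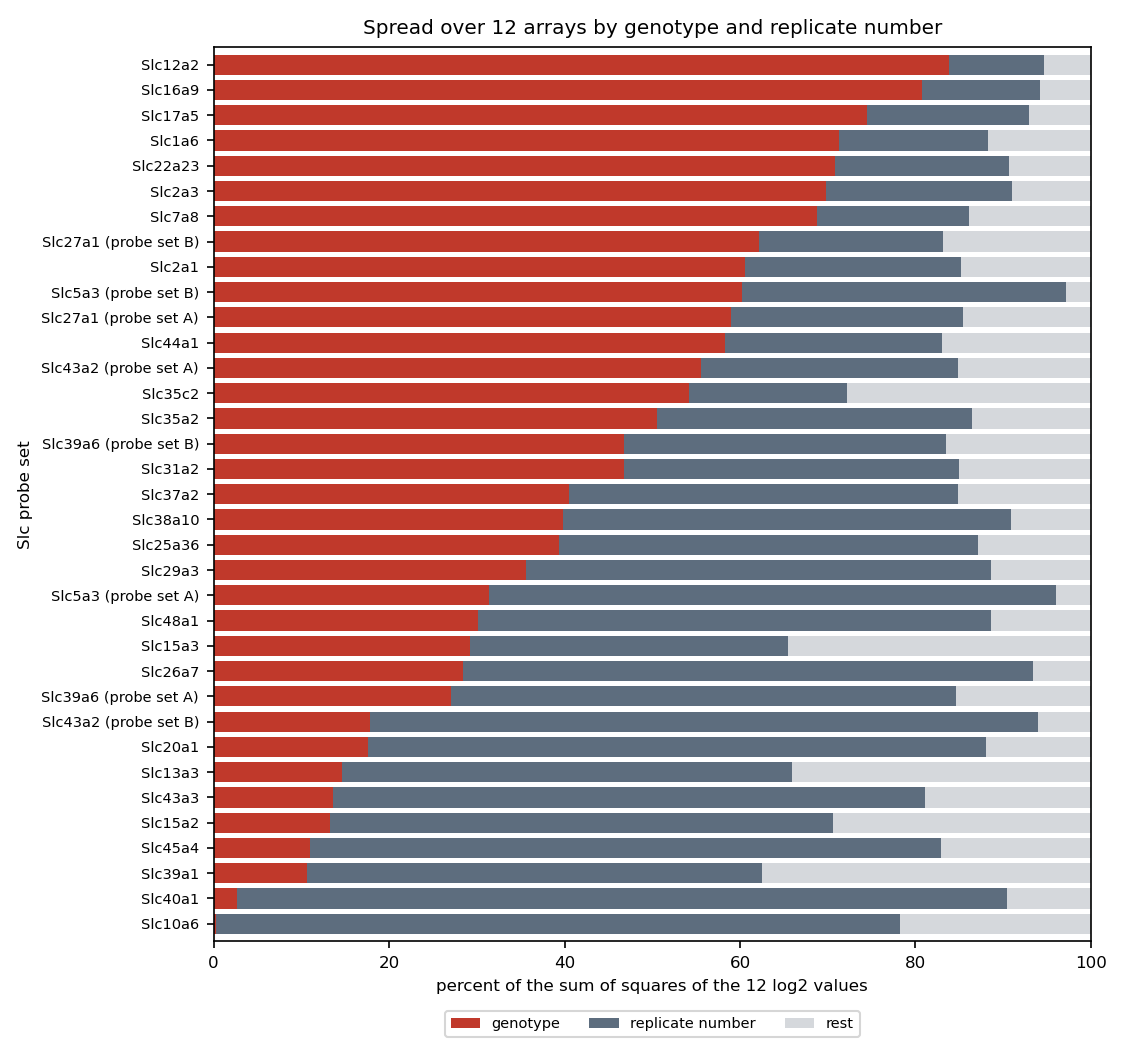
Share of the sum of squares of the 12 log2 values (x axis, percent) held by genotype, by replicate number and by neither, for each Slc probe set (y axis, ordered by the genotype share). The genotype share runs from 83.8% for Slc12a2 down to 0.34% for Slc10a6.

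The Slc probe sets were also set beside lists of other transporters and partner proteins, of Atf4 targets and of iron handling genes. These lists were chosen with earlier results of these data known, and the first includes Slco2a1 and Slco2b1. Of 59 other membrane transporters and partner proteins, 11 were measured, and 1 was lower and 0 were higher in Crebbp+/- than in wild type, where 1.16% of all probe sets were lower and 5.02% higher. With the block 5 were lower and 0 higher, against 8.62% and 17.5% of all. The water channel Aqp1 was the one, at 3.95-fold lower (log2 difference -1.98, limma adjusted p = 0.0202, and 0.00508 with the block). The median of the 11 was -0.56, with 8 negative, beside 0.24 over all probe sets. Of 23 Atf4 targets, which include genes that cells induce when amino acids run short, 14 were measured and 0 passed in any comparison, while 2 higher and 1 lower passed with the block against wild type. Of 19 genes of iron handling 6 were measured, and 1 passed, with Crebbp+/- above wild type, Cd163 (log2 difference 1.18, limma adjusted p = 0.0228; with the block it was again 1), a hemoglobin scavenger receptor that is also on the macrophage marker list. Of 15 macrophage markers 4 were measured, with a summed linear level of 17214 to 20916 in wild-type, 26230 to 40650 in Crebbp+/- and 19724 to 40674 in Ep300+/- stroma. In Ep300+/- against wild-type stroma 0 of these transporters, Atf4 targets and iron genes passed.

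Both calls against wild type and the 4 between the heterozygotes were absent with Eif2s3y as a covariate, a fit in which 0 of the 3109 probe sets passed. In it the log2 differences from wild type were 1.14 for Slc12a2 and 1.73 for Slc1a6 (limma adjusted p = 0.266 for each). Without Crebbp+/- 1 and Crebbp+/- 3 together the differences were 1.17 and 1.56 (limma adjusted p = 0.230 and 0.239). Both differences from wild type were thus at least as large without those 2 arrays, while the calls were lost. Between the heterozygotes the differences without them were 1.15 for Slc12a2, 1.65 for Slc1a6, 1.41 for Slc22a23 and 1.38 for Slc16a9 (limma adjusted p = 0.186, 0.199, 0.203 and 0.172). With only the compared genotypes in the fit, Slc1a6 still passed against wild type (limma adjusted p = 0.0154) and Slc12a2 did not (0.0503). In the same kind of fit the 4 differences between the heterozygotes had limma adjusted p = 0.0832 for Slc12a2, 0.0828 for Slc1a6, 0.0685 for Slc22a23 and 0.109 for Slc16a9.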

How the data were processed

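The data are 12 Affymetrix arrays. Per the submitters' processing notes, the log2 values that the authors deposited come from GCRMA, whose version is not stated there. Of 3127 probe sets, 18 controls were dropped. The lowest interquartile range over the arrays was 0.5001, so flat genes had been removed before deposit. Genotypes were compared with limma (version 3.58.1, R 4.3.3), with all 12 arrays in one model and Benjamini-Hochberg adjustment over 3109 probe sets. No further normalization was applied, and the number of arrays limits the precision.

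Replicate numbers recur in the genotypes. Deviations of same-numbered arrays from their group means correlated with r from 0.448 to 0.603 (Crebbp+/- and wild type) and from 0.294 to 0.513 (Crebbp+/- and Ep300+/-). For Ep300+/- and wild type r ran from 0.0593 to 0.683. The labels state no pairing, so taking the numbers to pair arrays rests on these correlations in the same data. Blocked values are given beside the results.

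Substrate groups follow family numbers. Named with their values were members called in a comparison, the 5 highest and 5 lowest differences, the 5 smallest p, Slc16a9, and genes whose probe sets disagree; other members are given too. The members and lists were chosen with earlier results of these data known. On simulated data of this size, for Crebbp+/- against wild type with 3109 probe sets, 77% of planted differences of 2 and 24% of 1 log2 unit were recovered, with 7 false calls among 108. The simulated arrays were drawn independently of each other, and only increases in Crebbp+/- were planted. Real arrays of the same number correlate, so these rates need not hold for the real data.

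Alternatives were quantile normalization, median centring, a minimum mean level of 7, the trend and robust options of eBayes, fitting 2 genotypes at a time, array weights, the block, the Eif2s3y covariate, 1 probe set per gene and leaving out each array. Leaving out both arrays of low Eif2s3y, and the gene-by-gene method for array weights, used because limma's default method did not converge, were chosen after seeing the data.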

Additional observations from a re-analysis of the deposited data

Results flagged for a closer look

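Among 105 sets of 4 arrays (35 Slc probe sets in 3 genotypes), 6 held an array that stood apart from its group by Dixon's criterion, and chance alone marks about 1 in 20 such sets. Slc1a6 stood at 6.01 on Ep300+/- 4, with the other Ep300+/- arrays between 7.68 and 7.82. Slc10a6 stood at 9.32 on Ep300+/- 3, with the others between 7.58 and 7.67. Slc22a23 stood at 5.94 on wild-type 1, with the others between 5.66 and 5.68, and at 5.29 on Crebbp+/- 4, with the others between 6.66 and 6.83. Slc29a3 stood at 6.78 on wild-type 1, with the others between 6.15 and 6.25. Slc43a3 stood at 7.71 on Crebbp+/- 4, with the others between 8.96 and 9.09.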

How the results depend on the processing

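Counts of Slc calls changed most with the block and with array weights, which limma's default method could not fit and its gene-by-gene method could. The weights ran from 0.331 on Ep300+/- 4 to 5.27 on Crebbp+/- 1. The share of all probe sets that passed with array weights is not given here. Slc counts from that fit therefore cannot be read as a result about the transporters. Against wild type, the 2 calls in Crebbp+/- became 1 in a fit of these genotypes alone, 18 with array weights, 15 with the replicate block, 0 with the Eif2s3y covariate, 0 without the 2 arrays of low Eif2s3y and 0 to 3 without 1 array. The 0 calls in Ep300+/- became 1 with array weights (Slc16a9, limma adjusted p = 0.0240) and stayed 0 in the other fits, the replicate block included. For these genotypes the correlation of same-numbered arrays ran from 0.0593 to 0.683. The replicate block applied to all arrays in the fit, so it paired these arrays by number too. Between the heterozygotes the 4 calls became 0 in a fit of these genotypes alone, 19 with array weights, 17 with the replicate block, 0 with the covariate, 0 without the 2 arrays and 0 to 6 without 1 array. Of the values of single genes under an alternative, 861 kept direction and call, 39 gained and 50 lost the call, and 18 changed sign. Slc16a9 in Crebbp+/- against wild type went from -0.12 to 0.19 with the covariate, 0.19 without the 2 arrays and to between -0.29 and 0.086 without 1 array. In Ep300+/- against wild type, Slc27a1 (probe set A) went from -0.027 to between -0.18 and 0.12 without 1 array. Slc27a1 (probe set B) went from 0.032 to -0.016 after quantile normalization, -0.025 after median centring, -0.030 with array weights and between -0.16 and 0.22 without 1 array. Slc43a2 (probe set B) went from 0.039 to -0.018 after median centring and between -0.18 and 0.24 without 1 array. Slc15a2 between the heterozygotes went from -0.70 to 0.034 with array weights. The cause of these sign changes was not tested.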

Other observations

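The transporters that the naming rule left out had these values. Slco2a1, a prostaglandin transporter, differed between Crebbp+/- and wild-type stroma by -0.89 (limma adjusted p = 0.0789, and 0.0183 with the block) on the log2 scale. The organic anion transporter Slco2b1 had differences of -0.69 and -0.61 by its 2 probe sets (limma adjusted p = 0.230 and 0.180). The probe set shared by Slc28a2 and Slc28a2b differed by 0.73 (limma adjusted p = 0.247), and by 0.74 between the heterozygotes (0.266).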
